A study of Mus musculus with 10 samples.

Results

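Hepatocytes, the secretory and metabolic cells of the liver, take their identity from a small set of transcription factors that bind together at the enhancers and promoters of liver genes. The genes described here are 9 of these factors: the forkhead genes Foxa1, Foxa2 and Foxa3, the basic leucine zipper genes Cebpa, Cebpb and Creb3l3, the prospero homeobox gene Prox1, and the onecut homeobox genes Onecut1 and Onecut2. They were taken by symbol from the deposited table, 9 of 56748 genes, and each symbol had 1 row. All 9 passed the filter on low values, with 12439 genes in all. Tissues other than liver are not analysed here, so enrichment in the liver was not tested. In normal liver, however, the members held rank 1 (Cebpa), 2 (Cebpb) and 4 (Creb3l3) by mean level among the 1525 genes to which the table gives a transcription factor family.

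RNA was sequenced from 10 mouse liver samples. Normal liver of wild-type FVB mice gave 4 samples. Both tumour groups were raised in mice whose genotype is given as wild type by hydrodynamic tail vein injection, which delivers DNA to hepatocytes. Akt/Nras tumours (n = 3) carried Akt and Nras, and Akt/Nras/Foxo1AAA tumours (n = 3), called Foxo1AAA tumours below, carried Akt, Nras and Foxo1AAA. AKT phosphorylates the forkhead factor FOXO1 and so keeps it out of the nucleus, and Foxo1AAA is a form that AKT cannot phosphorylate. The comparison between the tumour groups thus concerns what the addition of Foxo1AAA changes in these tumours. No group carried added Foxo1 without the change, so escape from AKT and a higher level of Foxo1 cannot be told apart. Promoters of the constructs, sex, age, and whether the normal livers were injected were looked for in the sources used here and not given. The labels do not tie each sample to a mouse of its own, and the p-values below therefore measure a spread that may be technical.

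Values are FPKM, which divides a gene's reads by its length and by a measure of library size, so levels of different genes can be set side by side. The whole reads behind them numbered 13.6 to 21.3 M per library. For the members they ranged from 70 reads (Onecut1 in Foxo1AAA tumour 3) to 14632 reads (Cebpa), so Onecut1 is the member that counting error limits most. Changes are differences in log2(FPKM + 1) from 1 limma fit over all 10 libraries, and a gene was called at a Benjamini-Hochberg adjusted p under 0.05 over all 12439 genes. The authors' scaling bears on directions here, because FPKM summed to 692009.9 or more in each normal liver and to 444893.0 or less in each tumour. A scaling that sets the libraries to an equal FPKM total, called equal totals below, was therefore set beside it. Median-of-ratios scaling, which uses the median ratio over genes above 0 in all libraries, stayed near the deposited scaling. Its factors ran from 0.979 to 1.05. The median change over all genes was -0.07 as deposited and 0.72 with equal totals in Akt/Nras tumours, -0.09 and 0.48 in Foxo1AAA tumours, and -0.01 and -0.22 when the tumour groups were compared. Hepatocyte markers were abundant in all groups: the 8 genes Alb, Apoa1, Apob, Ttr, Trf, Ahsg, Cps1 and Serpina1c summed to 79578 to 85235 FPKM in normal livers, 46208 to 47665 FPKM over Akt/Nras tumours, and 57388 to 70547 FPKM in Foxo1AAA tumours. Foxo1 stood at 77.9 to 125 FPKM in Foxo1AAA tumours and at 5.37 to 8.02 FPKM in the other 7 libraries, as the labels have it, with the delivered and the mouse's own gene not separated.

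FOXA proteins are pioneer factors, which open closed chromatin so that other factors can bind, and FOXA1 and FOXA2 together are needed for liver to form. C/EBP-alpha, the product of Cebpa, restrains hepatocyte division and drives genes of gluconeogenesis, the urea cycle and secreted proteins, whereas C/EBP-beta serves the acute phase response and regeneration. ONECUT1, also known as HNF6, and ONECUT2 act in bile duct and hepatocyte development. PROX1 is made early in the hepatoblast and persists in hepatocytes, and CREB3L3, also known as CREBH, is anchored in the endoplasmic reticulum until proteases release its active part, which controls triglyceride, ketone and hepcidin genes.

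In normal liver Cebpa stood highest at 457 ± 27.2 FPKM (SD, n = 4), followed by Cebpb at 265 ± 59.0, Creb3l3 at 155 ± 10.3, Foxa3 at 35.98 ± 7.03, Foxa2 at 26.7 ± 8.64, Prox1 at 12.2 ± 1.23, Foxa1 at 10.98 ± 2.91, Onecut1 at 7.58 ± 2.95 and Onecut2 at 5.98 ± 0.776 FPKM (SD, n = 4 each). The libraries of neighbours in this order did not overlap from Cebpa down to Foxa3, nor between Foxa2 and Prox1. They did overlap between Foxa3 and Foxa2, Prox1 and Foxa1, Foxa1 and Onecut1, and Onecut1 and Onecut2. Within libraries, Foxa1 lay above Onecut1 in each normal liver. The order in the remaining overlapping pairs differed between livers and is not set by these samples. Every library of Prox1 and Foxa1 lay above every library of Onecut2. In Akt/Nras tumours the mean of Cebpb, 131 ± 31.5 FPKM (SD, n = 3), stood above that of Cebpa, 107 ± 29.8 FPKM (SD, n = 3), with overlapping libraries. Cebpa was again first in Foxo1AAA tumours, at 200 ± 24.2 FPKM against 120 ± 30.5 FPKM for Cebpb (SD, n = 3 each), without overlap. Onecut1 was the lowest of the 9 in both tumour groups, below every library of Onecut2.

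**Figure D1:**
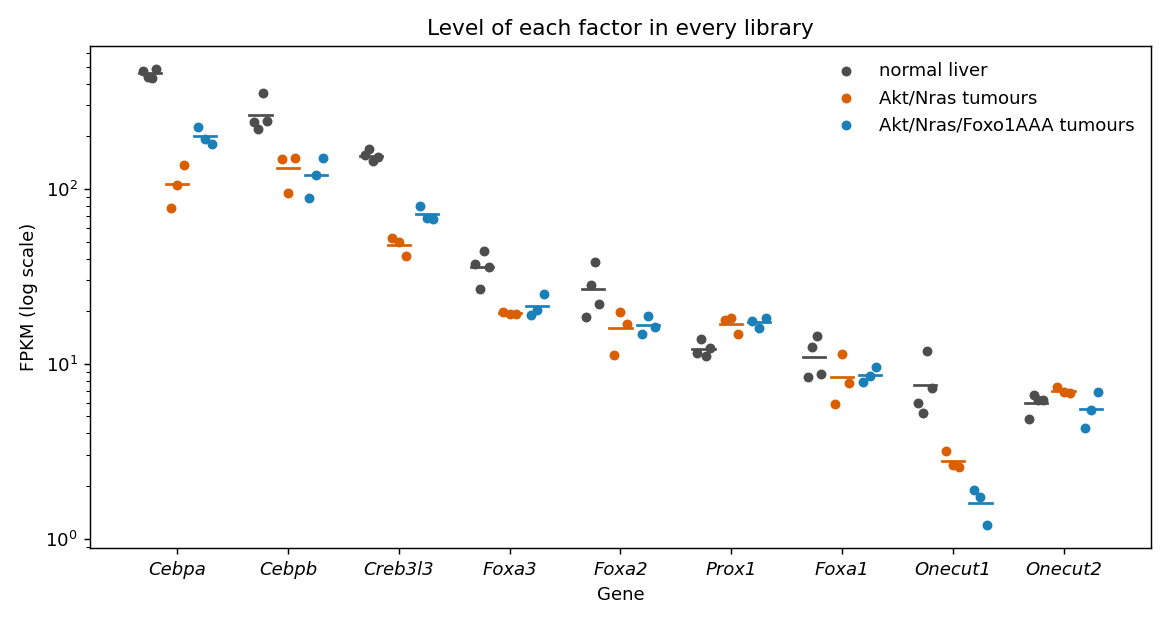
Level of each of the 9 factors in every library, in FPKM on a log axis, for normal liver (grey), Akt/Nras tumours (orange) and Akt/Nras/Foxo1AAA tumours (blue). Points are libraries and bars are group means: the tumours lie below normal liver for Cebpa, Cebpb, Creb3l3, Foxa3 and Onecut1, and above it for Prox1.

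In Akt/Nras tumours 6 of the 9 factors fell against normal liver (Cebpa, Cebpb, Creb3l3, Foxa3, Foxa2 and Onecut1) and 1 rose (Prox1). Over all genes tested, 37.9% fell and 31.1% rose, and among the 659 tested genes with a transcription factor family 30.5% fell and 34.4% rose. The median change of the members was -0.83, beside -0.07 for all genes and 0.04 for the transcription factor genes. In Foxo1AAA tumours, which were compared with the same normal livers, 6 factors fell and 1 rose as well, beside 36.5% and 26.8% of all genes and 30.3% and 26.6% of transcription factor genes, and the members' median was -0.71 beside -0.09 for all genes. With equal totals 2 members fell and 3 rose in Akt/Nras tumours, beside 12.9% and 70.7% of all genes, and 3 fell and 2 rose in Foxo1AAA tumours, beside 12.7% and 62.1%. The falls of Cebpa and Creb3l3 and the rise of Prox1 were called under both scalings in both comparisons. Against Akt/Nras tumours, Foxo1AAA tumours had 2 factors higher, Cebpa and Creb3l3, beside 7.93% of all genes and 2.88% of transcription factor genes that rose. No member fell by limma, where 4.13% of all genes did and where Onecut1 alone had an unadjusted p under 0.05. With limma voom on the recovered reads no member fell either, and 2 had an unadjusted p under 0.05. With equal totals 1 member was higher and 2 were lower, beside 5.26% and 26.6% of all genes. In these bulk samples, fewer hepatocytes and less RNA of a factor per hepatocyte cannot be told apart.

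**Figure D2:**
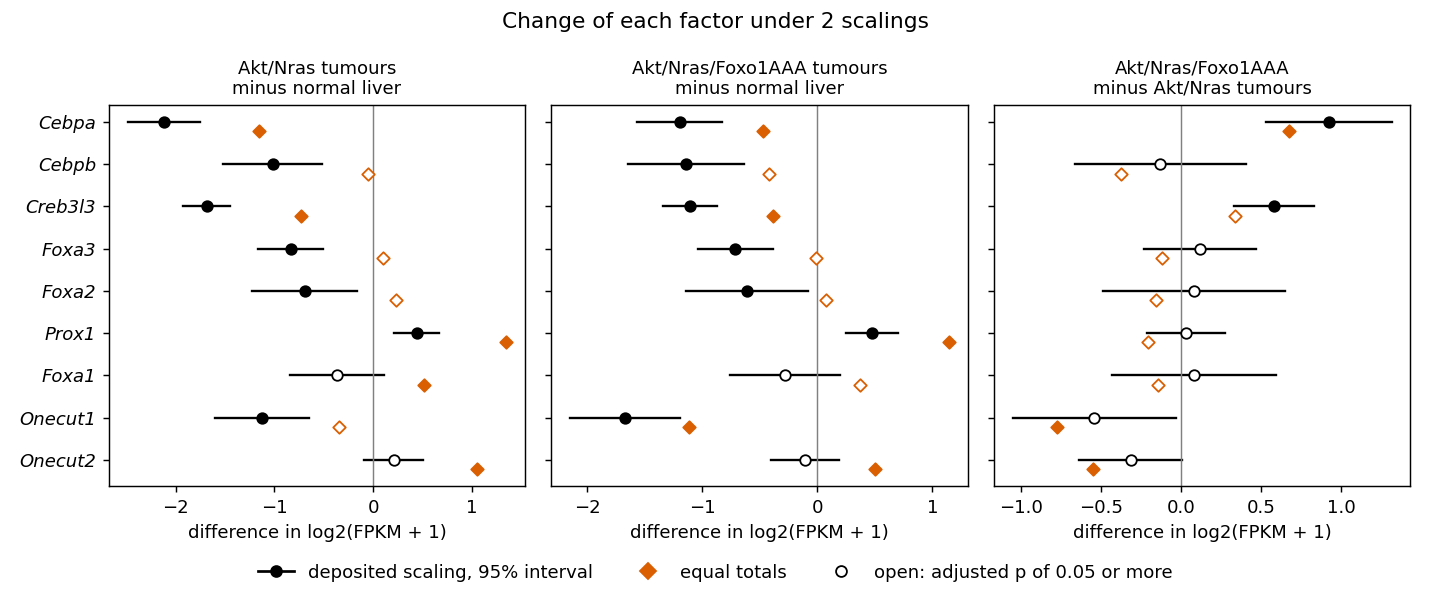
Difference in log2(FPKM + 1) of each factor in the 3 comparisons, with the deposited scaling (circles, with 95% intervals from limma) and with equal totals (diamonds). Filled symbols have an adjusted p under 0.05: Cebpa, Creb3l3 and Prox1 are filled under both scalings against normal liver, whereas Foxa1, Foxa2, Foxa3, Cebpb, Onecut1 and Onecut2 change call or side with the scaling in at least 1 of those comparisons.

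Cebpa had the largest fall of the 9 in Akt/Nras tumours. It stood at 474, 435, 433 and 486 FPKM in the normal livers, at 78.3, 105 and 138 FPKM in Akt/Nras tumours and at 227, 192 and 180 FPKM in Foxo1AAA tumours. The 3 groups did not overlap, and the Foxo1AAA tumours lay between the others. The gene fell 4.27-fold in Akt/Nras tumours (log2 change -2.12 with an SE of 0.17, limma adjusted p = 1.12e-06) and 2.29-fold in Foxo1AAA tumours (log2 change -1.20 with an SE of 0.17, limma adjusted p = 1.08e-04). It was 1.86-fold higher in Foxo1AAA than in Akt/Nras tumours (log2 change 0.92 with an SE of 0.18, limma adjusted p = 0.0112). The rank of Cebpa among the transcription factor genes went from 1 in normal liver to 7 in Akt/Nras and 2 in Foxo1AAA tumours. With equal totals the changes were -1.15, -0.47 and 0.68, each called. The difference between the tumour groups passed without each library in turn (adjusted p from 0.00468 to 0.0475), but a fit on the 6 tumour libraries alone left it at an adjusted p of 0.0698.

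Cebpa (ENSMUSG00000034957) spans 34818718 to 34821353 on the plus strand of chromosome 7 by the deposited coordinates, for which no build is named. Promoters were examined for 8 of the 9 members, and that of Onecut2 was not examined. RefSeq windows on GRCm38.p6 ran from 250 bases before to 50 bases after a transcript start. These 8 members had 12 windows, among 32851 windows of all genes. They were searched on both strands for TATAAA (the TATA box, in 13.6% of all windows), TGTTTAC or TGTTTGC (forkhead core, 8.48%), TTGCNNAA (C/EBP, 10.8%), ATTGAT (onecut core, 7.54%), TGACG (core of the cAMP response element, which CREB-type factors bind, 20.8%), CCAAT (37.4%) and GGGCGG (the GC box, 35.7%). The Cebpa window is shown because this gene fell most in Akt/Nras tumours, as the 250 bases before the start, chr7:35119043-35119292 on the plus strand, with the match in capitals.
Cebpa promoter: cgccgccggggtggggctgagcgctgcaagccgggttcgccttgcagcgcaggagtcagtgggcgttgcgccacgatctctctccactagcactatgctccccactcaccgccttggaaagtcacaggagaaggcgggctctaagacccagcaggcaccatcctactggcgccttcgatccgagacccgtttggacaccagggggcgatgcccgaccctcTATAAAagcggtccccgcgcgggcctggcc
The capitals mark TATAAA, whose first base lies 30 bases before the start. None of the other motifs was found in this window, which says only that these letters are absent from it.

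Creb3l3 followed the same order of groups as Cebpa. It stood at 157, 169, 144 and 151 FPKM in the normal livers, at 52.4, 49.5 and 41.1 FPKM in Akt/Nras tumours and at 80.0, 67.7 and 67.5 FPKM in Foxo1AAA tumours. No groups overlapped. It fell 3.26-fold in Akt/Nras tumours (log2 change -1.69 with an SE of 0.11, limma adjusted p = 2.37e-07) and 2.16-fold in Foxo1AAA tumours (log2 change -1.11, limma adjusted p = 7.55e-06). It was 1.504-fold higher in Foxo1AAA than in Akt/Nras tumours (log2 change 0.58 with an SE of 0.11, limma adjusted p = 0.0114). With equal totals it still fell in both comparisons with normal liver, by 0.73 and 0.39 on the log2 scale, but the difference between the tumour groups, 0.34, had an adjusted p of 0.0548. The 6 tumour libraries alone gave an adjusted p of 0.0673.

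Creb3l3 (ENSMUSG00000035041) lies on the minus strand of chromosome 10, from 80920158 to 80934708 in the deposited coordinates. RefSeq gives it a pair of start sites, and both windows are shown because they held different motifs, here as the 250 bases before the start on the minus strand of GRCm38.p6, chr10:81092592-81092841 and chr10:81098873-81099122 in that order.
Creb3l3 promoter, window 1: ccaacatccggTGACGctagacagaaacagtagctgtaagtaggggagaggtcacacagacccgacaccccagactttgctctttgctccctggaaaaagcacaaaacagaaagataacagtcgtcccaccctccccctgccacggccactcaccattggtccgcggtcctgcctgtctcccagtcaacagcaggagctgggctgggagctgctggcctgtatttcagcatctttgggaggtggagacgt
Creb3l3 promoter, window 2: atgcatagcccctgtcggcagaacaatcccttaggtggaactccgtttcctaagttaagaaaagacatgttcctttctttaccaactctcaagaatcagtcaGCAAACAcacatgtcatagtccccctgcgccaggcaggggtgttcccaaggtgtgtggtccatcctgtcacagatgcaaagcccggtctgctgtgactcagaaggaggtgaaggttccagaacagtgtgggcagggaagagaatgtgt
In window 1 the capitals mark TGACG, first base 239 bases before the start, and a CCAAT on the opposite strand, in lower case, lies 95 bases before it. In window 2 they mark a forkhead core on the opposite strand, first base 148 bases before the start. Binding of any factor was not measured.

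CREB3L3 targets moved in both directions while their listed regulator fell. Of 20 genes listed as targets, 15 fell and 4 rose in Akt/Nras tumours (median change -1.76), and 14 fell and 4 rose in Foxo1AAA tumours (median -0.80). With equal totals 13 fell and 5 rose, and 7 fell and 5 rose. Of all genes, 37.9% and 36.5% fell and 31.1% and 26.8% rose as deposited. With equal totals 12.9% and 12.7% of all genes fell, and 70.7% and 62.1% rose. Hamp, which encodes the iron hormone hepcidin, averaged 4856 ± 623 FPKM over the normal livers (SD, n = 4), 30.4 ± 10.9 over the Akt/Nras and 149 ± 40.3 FPKM over the Foxo1AAA tumours (SD, n = 3 each). It fell 160.0-fold (limma adjusted p = 7.29e-09) and 32.7-fold (limma adjusted p = 1e-07). G6pc, the glucose 6-phosphatase of gluconeogenesis, fell 12.9-fold and 12.3-fold (limma adjusted p = 6.82e-08 and 1.44e-07). Against these falls Fgf21, which encodes a fasting hormone, rose from 2.07 ± 1.504 FPKM (SD, n = 4) to 20.8 ± 5.46 in Akt/Nras and 40.7 ± 6.41 FPKM in Foxo1AAA tumours (SD, n = 3 each; limma adjusted p = 2.73e-05 and 5.15e-06). Apoa4, an apolipoprotein of triglyceride transport, rose from 98.9 ± 15.7 FPKM (SD, n = 4) to 404 ± 117 and 1556 ± 1034 FPKM (SD, n = 3 each; limma adjusted p = 0.00127 and 1.93e-05). Cidec, a lipid droplet protein, and Apcs, a plasma pentraxin, were the other two that rose in both tumour groups, and were named after their values were seen because so few rose. Hamp and Fgf21 thus stood at the opposite ends of 1 list, both with groups that did not overlap.

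**Figure D3:**
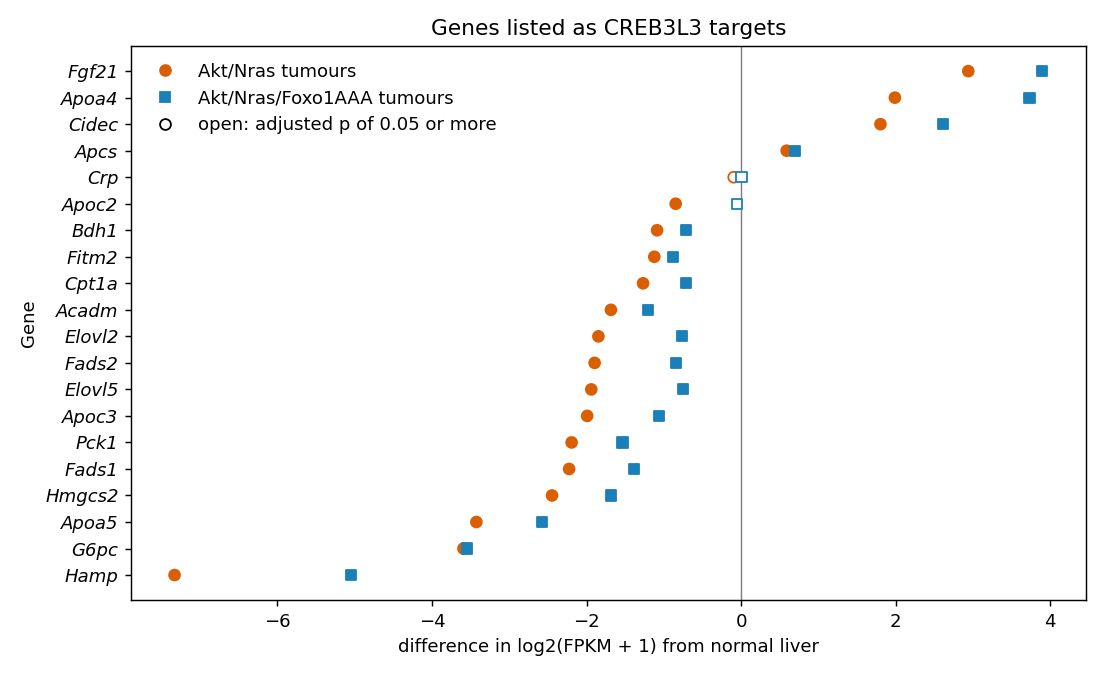
Difference in log2(FPKM + 1) from normal liver of the 20 genes listed as CREB3L3 targets, in Akt/Nras tumours (circles) and Akt/Nras/Foxo1AAA tumours (squares), which share the normal livers. Filled symbols have an adjusted p under 0.05: Fgf21, Apoa4, Cidec and Apcs lie to the right of 0, and Hamp lies farthest to the left.

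Between the tumour groups 10 of these 20 genes were higher with Foxo1AAA, beside 7.93% of all genes. The other 10 did not pass, and the median change was 0.80, beside -0.01 for all genes. Hamp was 4.89-fold higher (log2 change 2.28 with an SE of 0.26, limma adjusted p = 0.0023) and Apoa4 was 3.85-fold higher (log2 change 1.74 with an SE of 0.44, limma adjusted p = 0.0293). The Foxo1AAA libraries of Apoa4 ran from 607 to 2657 FPKM, so its spread within the group was wide. With equal totals 7 of the 20 were higher, beside 5.26% of all genes (median 0.59, beside -0.22 for all genes). A fit on the 6 tumour libraries alone called 5 genes higher over all genes, so not all 10 would pass there. Of 10 genes for the release of CREB3-type factors from the endoplasmic reticulum, 6 fell and 1 rose in Akt/Nras tumours, but 2 fell and 8 rose with equal totals. In Foxo1AAA tumours 5 fell and 2 rose, but 1 fell and 7 rose with equal totals. Under that scaling 70.7% and 62.1% of all genes rose in the Akt/Nras and Foxo1AAA tumours. Scap, an escort protein for sterol-regulated factors, fell from 33.8 ± 1.35 FPKM (SD, n = 4) to 6.89 ± 0.793 and 8.57 ± 1.42 FPKM (SD, n = 3 each; limma adjusted p = 5.27e-08 and 2.27e-07), and Mbtps2, the site-2 protease gene, rose 1.56-fold and 1.31-fold (limma adjusted p = 0.00219 and 0.0427). Insig2, a retention protein, was 2.16-fold higher in Foxo1AAA than in Akt/Nras tumours (limma adjusted p = 0.0133).

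Cebpb fell in both tumour groups, which overlapped each other. The normal livers had 243, 220, 352 and 244 FPKM, the Akt/Nras tumours 147, 94.8 and 151 FPKM, and the Foxo1AAA tumours 89.0, 121 and 150 FPKM. Every tumour lay below every normal liver. The gene fell 2.02-fold in Akt/Nras tumours (log2 change -1.01 with an SE of 0.23, limma adjusted p = 0.00221) and 2.21-fold in Foxo1AAA tumours (log2 change -1.14 with an SE of 0.23, limma adjusted p = 0.00121). The tumour groups differed by -0.13, with a 95% interval from -0.67 to 0.41 (limma adjusted p = 0.767). With equal totals neither fall passed: the changes were -0.05 (adjusted p = 0.85) and -0.42 (adjusted p = 0.109), both below the median of all genes under that scaling.

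A ratio of paralogs within a library does not depend on the scaling between libraries. Cebpb to Cebpa was 0.512, 0.506, 0.813 and 0.502 in the normal livers, 1.88, 0.901 and 1.10 in Akt/Nras tumours, and 0.392, 0.629 and 0.832 in Foxo1AAA tumours. The Akt/Nras tumours lay above all other libraries. The mean log2 ratio was 1.11 higher in Akt/Nras tumours than in normal liver (two-sided exact permutation test, p = 0.0571, Benjamini-Hochberg adjusted p = 0.137 over the 12 ratio tests) and 1.06 lower in Foxo1AAA than in Akt/Nras tumours (exact p = 0.1, adjusted p = 0.2). The smallest p the exact test can give is 0.0286 for 4 against 3 libraries and 0.1 for 3 against 3, and no ratio test passed after adjustment, so these ratios are given as values. Leaving out Akt/Nras tumour 1, whose ratio was 1.88, left 0.901 and 1.10.

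**Figure D4:**
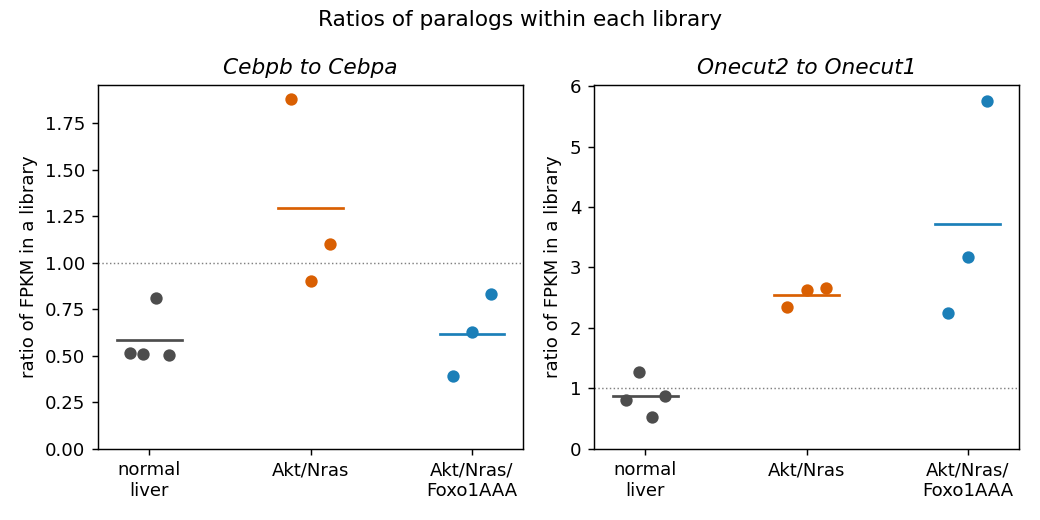
Ratio of FPKM within each library for Cebpb to Cebpa (left) and Onecut2 to Onecut1 (right), on linear axes from 0, with points for libraries, bars for group means and a dotted line at 1. The 3 Akt/Nras tumours lie above the other libraries for Cebpb to Cebpa, and all 6 tumours lie above all 4 normal livers for Onecut2 to Onecut1.

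More acute phase genes, a class that C/EBP-beta is known to serve, rose than fell. Of 20, 10 rose and 4 fell in Akt/Nras tumours, and 12 rose and 1 fell in Foxo1AAA tumours (medians 0.41 and 0.75). Over all genes 31.1% and 26.8% rose. With equal totals 15 and 16 rose and 1 fell in each, beside 70.7% and 62.1% of all genes that rose, so the excess was then small in Akt/Nras tumours. Lcn2, a siderophore-binding protein, rose from 3.66 ± 2.10 FPKM (SD, n = 4) to 2609 ± 212 and 2315 ± 915 FPKM (SD, n = 3 each; limma adjusted p = 3.42e-08 and 7.9e-08), and Cd14, the lipopolysaccharide co-receptor, rose from 1.62 ± 0.475 FPKM (SD, n = 4) to 313 ± 7.23 and 280.2 ± 134 FPKM (SD, n = 3 each; limma adjusted p = 2.48e-08 and 6.34e-08). Saa4, a constitutive serum amyloid A, fell 7.02-fold and 2.96-fold (limma adjusted p = 1.31e-05 and 0.00152). Myeloid cells make Cd14 and Lcn2 too, and their markers moved with these genes: 7 of 9 tested of 12 rose in each tumour group, and their sum was 86.9 to 126 FPKM in normal livers, 146 to 248 in Akt/Nras and 174 to 218 FPKM in Foxo1AAA tumours. Their part in the result was not tested.

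Among the other members of the C/EBP family and their leucine zipper partners, 3 of the 6 tested rose and 1 fell in each tumour group, and with equal totals 6 and 5 rose and none fell. Over all genes 31.1% and 26.8% rose, and 70.7% and 62.1% did with equal totals. Atf3, a stress-induced partner, rose from 0.714 ± 0.342 FPKM (SD, n = 4) to 11.3 ± 4.02 and 10.3 ± 2.21 FPKM (SD, n = 3 each; limma adjusted p = 2.37e-06 and 4.68e-06). Cebpd rose 2.14-fold in Akt/Nras tumours (limma adjusted p = 0.00468), and Ddit3, which encodes the inhibitory partner CHOP, rose 2.40-fold in Foxo1AAA tumours (limma adjusted p = 0.00458). Cebpz, a CCAAT-binding protein of another fold, fell 1.49-fold and 1.41-fold (limma adjusted p = 2.38e-04 and 7.77e-04), but with equal totals its changes were 0.34 (adjusted p = 0.00922) and 0.19 (adjusted p = 0.11). Atf5, a leucine zipper factor of the list of other liver factors, took the first rank among transcription factor genes in both tumour groups, at 201 ± 30.8 FPKM in Akt/Nras and 421 ± 74.8 FPKM in Foxo1AAA tumours (SD, n = 3 each) beside 109.9 ± 14.6 FPKM in normal liver (SD, n = 4). The place that Cebpa held in normal liver thus went to another leucine zipper gene.

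The forkhead members had smaller estimated changes from normal liver than Cebpa and Creb3l3. Foxa3 stood at 37.2, 26.9, 44.0 and 35.8 FPKM in the normal livers, at 19.9, 19.3 and 19.3 FPKM in Akt/Nras tumours and at 19.0, 20.3 and 24.9 FPKM in Foxo1AAA tumours. Every tumour lay below every normal liver. Foxa3 fell 1.85-fold (log2 change -0.83 with an SE of 0.15, limma adjusted p = 4.84e-04) and 1.68-fold (log2 change -0.71 with an SE of 0.15, limma adjusted p = 0.00166). With equal totals the changes were 0.10 and -0.01, which did not pass and lay below the median of all genes.

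Foxa2 stood at 18.5, 28.4, 38.1 and 21.8 FPKM in the normal livers, at 11.2, 19.9 and 16.9 FPKM in Akt/Nras tumours and at 14.8, 18.8 and 16.2 FPKM in Foxo1AAA tumours. The groups overlapped, since normal livers 1 and 4 lay near the tumours. It fell 1.67-fold (log2 change -0.69 with an SE of 0.24, limma adjusted p = 0.0250) and 1.61-fold (log2 change -0.61 with an SE of 0.24, limma adjusted p = 0.0454), and both calls rest on single libraries. The first was lost without normal liver 2 (adjusted p = 0.0569), normal liver 3 (0.0568) or Akt/Nras tumour 1 (0.112). The second was lost without normal liver 2 (0.094) or 3 (0.107), Akt/Nras tumour 3 (0.0577), or Foxo1AAA tumour 1 (0.127), 2 (0.0569) or 3 (0.0985). Testing every gene above 0 also ended both calls (adjusted p = 0.0584 and 0.1), and median-of-ratios scaling ended the second (0.0788). With equal totals the changes were 0.24 and 0.08, not called.

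Foxa1 stood at 8.42, 12.5, 14.4 and 8.70 FPKM in the normal livers, at 5.90, 11.4 and 7.80 FPKM in Akt/Nras tumours and at 7.91, 8.48 and 9.59 FPKM in Foxo1AAA tumours, with overlap between all groups. Its changes of -0.37 (95% interval -0.84 to 0.11, limma adjusted p = 0.156) and -0.28 (95% interval -0.76 to 0.20, limma adjusted p = 0.273) did not pass. Without Akt/Nras tumour 2 the first was -0.59 and passed (adjusted p = 0.0295), and with equal totals it turned to 0.51 (adjusted p = 0.0494). In Akt/Nras tumours Foxa1 and Foxa2 were both lowest in tumour 1 and highest in tumour 2, and in normal livers both were highest in liver 3, but in Foxo1AAA tumours Foxa1 was highest in tumour 3 and Foxa2 in tumour 2. The ratio of Foxa1 to Foxa2 kept within 0.376 to 0.455 in normal livers, 0.462 to 0.575 over Akt/Nras tumours, and 0.451 to 0.593 in Foxo1AAA tumours (exact p = 0.0286 and 0.0571 against normal liver, adjusted p = 0.114 and 0.137 over the 12 tests). From Akt/Nras to Foxo1AAA tumours the changes of Foxa1, Foxa2 and Foxa3 were 0.08, 0.08 and 0.12, with 95% intervals from -0.43 to 0.60, -0.49 to 0.65 and -0.23 to 0.47, and none passed (limma adjusted p = 0.849, 0.870 and 0.658). With equal totals these 3 changes were -0.14, -0.16 and -0.12.

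Of 16 tested among 22 paralogs from the forkhead, onecut and CREB3 families, 8 rose and 4 fell in Akt/Nras tumours (13 and 1 with equal totals), and 5 rose and 4 fell in Foxo1AAA tumours (10 and 1). Over all genes 31.1% and 26.8% rose, and 70.7% and 62.1% did with equal totals. Foxo1, carried by the injected DNA, was the 1 paralog called between the tumour groups, and 6 others were called lower with equal totals. Foxc1, a mesodermal forkhead gene at 0.0715 FPKM or less in every normal liver, reached 5.92 ± 2.68 in Akt/Nras and 3.31 ± 2.12 FPKM in Foxo1AAA tumours (SD, n = 3 each; limma adjusted p = 2.91e-05 and 3.83e-04). Foxq1 fell 5.44-fold and 3.31-fold (limma adjusted p = 3.13e-04 and 0.00316). Stellate and fibroblast markers moved with Foxc1: 5 of 8 rose and 2 fell in each tumour group, and their sum was 34.03 to 41.2 FPKM in normal livers, 148 to 177 in Akt/Nras and 95.1 to 128 FPKM in Foxo1AAA tumours, and their part in its rise was not tested.

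Onecut1 fell in both tumour groups, to the lowest level of the 9. It stood at 6.001, 5.26, 11.8 and 7.23 FPKM in the normal livers, at 3.16, 2.63 and 2.56 FPKM in Akt/Nras tumours and at 1.90, 1.73 and 1.19 FPKM in Foxo1AAA tumours. The 3 groups did not overlap, and the order of the tumour groups was the reverse of that of Cebpa and Creb3l3. It fell 2.73-fold in Akt/Nras tumours (log2 change -1.13 with an SE of 0.21, limma adjusted p = 7.81e-04) and 4.72-fold in Foxo1AAA tumours (log2 change -1.67 with an SE of 0.21, limma adjusted p = 6.18e-05), where its fall was the largest of the 9. Its change of -0.54 from Akt/Nras to Foxo1AAA tumours (95% interval -1.05 to -0.03) did not pass (limma adjusted p = 0.148), but passed without normal liver 3 (adjusted p = 0.0416). With equal totals the fall in Akt/Nras tumours, -0.34, did not pass, the fall in Foxo1AAA tumours did (log2 change -1.12), and the tumour groups then differed (log2 change -0.77, adjusted p = 0.0264).

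Onecut1 (ENSMUSG00000043013) spans 74769203 to 74799063 on the plus strand of chromosome 9 in the deposited coordinates. Its window is shown because the gene fell most in Foxo1AAA tumours, as the 250 bases before the start, chr9:74861671-74861920 on the plus strand of GRCm38.p6.
Onecut1 promoter: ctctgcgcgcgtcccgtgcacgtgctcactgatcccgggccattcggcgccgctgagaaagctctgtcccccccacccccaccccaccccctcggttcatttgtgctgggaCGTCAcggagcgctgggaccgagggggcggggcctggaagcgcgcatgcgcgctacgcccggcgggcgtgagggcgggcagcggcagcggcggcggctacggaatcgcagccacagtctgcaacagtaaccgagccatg
The capitals mark CGTCA, which is TGACG on the opposite strand, first base 139 bases before the start, and GC boxes, in lower case, lie 115 and 68 bases before it. G and C made up 73.0% of the 300 bases searched, beside a median of 52.7% over all windows and 67.3% for Cebpa.

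Its paralog Onecut2 passed no test with the deposited scaling. Onecut2 stood at 4.86, 6.65, 6.19 and 6.24 FPKM in the normal livers, at 7.40, 6.91 and 6.78 FPKM in Akt/Nras tumours and at 4.27, 5.47 and 6.86 FPKM in Foxo1AAA tumours. The changes of 0.21 and -0.11 from normal liver (95% intervals -0.09 to 0.51 and -0.41 to 0.19) did not pass (limma adjusted p = 0.193 and 0.505), although every Akt/Nras tumour lay above every normal liver. With equal totals both were called as rises, 1.05 (adjusted p = 4.63e-05) and 0.50 (adjusted p = 0.00882). The change between the tumour groups, -0.32, did not pass (limma adjusted p = 0.178) but passed without Foxo1AAA tumour 3 (adjusted p = 0.0455) and with equal totals (log2 change -0.55, adjusted p = 0.0249). Onecut2 to Onecut1 was 0.810, 1.26, 0.523 and 0.863 in the normal livers, 2.34, 2.63 and 2.65 in Akt/Nras tumours and 2.25, 3.17 and 5.76 in Foxo1AAA tumours. All tumours lay above all normal livers, and the mean log2 ratio was 1.62 and 2.06 higher than in normal liver (exact p = 0.0286 each, the smallest possible, adjusted p = 0.114 over the 12 tests). Onecut3, the remaining paralog, was highest in Akt/Nras tumours, at a mean of 0.0373 FPKM.

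Prox1 was the member that rose. It stood at 11.6, 13.9, 11.1 and 12.3 FPKM in the normal livers, at 17.9, 18.3 and 14.7 FPKM in Akt/Nras tumours and at 17.7, 15.9 and 18.4 FPKM in Foxo1AAA tumours. Every tumour lay above every normal liver, though Akt/Nras tumour 3 came close to normal liver 2. It rose 1.39-fold (log2 change 0.44 with an SE of 0.10, limma adjusted p = 0.00280) and 1.42-fold (log2 change 0.47 with an SE of 0.10, limma adjusted p = 0.00213), and by 1.35 and 1.14 on the log2 scale with equal totals. The tumour groups differed by 0.03, with a 95% interval from -0.21 to 0.27 (limma adjusted p = 0.879), and -0.21 with equal totals. Lymphatic endothelium makes PROX1 too, and 3 and 2 of its 5 tested markers of 8 rose in the tumour groups. Ccl21a, with log2 changes of -0.29 and -0.60, and Nrp2, with -0.16 and -0.03, were not called. The 8 markers summed to 7.09 to 9.19 FPKM in normal livers, 20.3 to 27.3 in Akt/Nras and 27.2 to 31.7 FPKM in Foxo1AAA tumours. Flt4, which encodes the receptor VEGFR3, made up most of the sum in Foxo1AAA tumours. Its level was 1.87 ± 0.0294, 10.98 ± 1.92 and 20.7 ± 2.91 FPKM (SD, n = 4, 3 and 3). The part of the lymphatic markers in the rise was not tested. The markers of neuroendocrine cells, which also make ONECUT2 and PROX1, had group means under 1 FPKM for all 8, and 3 to 5 of them were at 0 in every library of a group. Their sum was higher in Akt/Nras tumours, at 1.17 to 1.502 FPKM, than in normal livers, at 0.241 to 0.355 FPKM, and ran from 0.339 to 0.980 FPKM in Foxo1AAA tumours. Insm1, a neuroendocrine factor, stood at 0.0337 FPKM or less in normal livers, at 0.157 to 1.32 in Akt/Nras and at 0.0903 to 0.758 FPKM in Foxo1AAA tumours, and the part of these markers in the rise of Prox1 was not tested. Of 7 tested endothelial markers 3 rose in each tumour group and 1 fell in Akt/Nras tumours.

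The strand setting of the counting is not given in the sources used here, so reads of a gene and of one on the opposite strand over it cannot be told apart. Prox1os, a noncoding RNA opposite Prox1, stood at 4.28 to 6.03 FPKM in normal livers, 0.825 to 2.52 in Akt/Nras and 1.38 to 1.64 FPKM in Foxo1AAA tumours, and so lay lower in every tumour while Prox1 lay higher. Gm45091, opposite Cebpa, stood at 4.64 to 7.12 FPKM in normal livers and at 1.67 FPKM or less in every tumour, small beside the level of Cebpa. Peds1, opposite Cebpb, stood at 1.61 to 3.68 FPKM over all libraries.

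Most other factors of the liver network fell with the deposited scaling. With equal totals more of them rose than fell, but a smaller share rose than over all genes. Of 40 tested among 42 such factors, 26 fell and 6 rose in Akt/Nras tumours (median -0.72), and 26 fell and 5 rose in Foxo1AAA tumours (median -0.57). As deposited, 37.9% and 36.5% of all genes fell. With equal totals 11 fell and 15 rose, and 9 fell and 15 rose (medians 0.14 and 0.08, beside 0.72 and 0.48 for all genes). Under that scaling 12.9% and 12.7% of all genes fell, and 70.7% and 62.1% rose. Nr1i3, the xenobiotic receptor CAR, fell from 9.31 ± 0.554 FPKM (SD, n = 4) to 0.303 ± 0.0780 and 0.950 ± 0.248 FPKM (SD, n = 3 each; limma adjusted p = 7.29e-09 and 3.81e-08). Dbp, a circadian leucine zipper factor, fell 7.43-fold in Akt/Nras tumours (limma adjusted p = 7.13e-07), and Klf15, a factor of fasting metabolism, fell 4.00-fold in Foxo1AAA tumours (limma adjusted p = 3.51e-07). Gata6, an endodermal factor, rose 3.82-fold and 3.03-fold (limma adjusted p = 1.76e-06 and 1.26e-05). Hnf4a, the nuclear receptor at the centre of this network, was chosen after its values were seen, since it ranked 3 in normal liver, between Cebpb and Creb3l3. It fell from 167 ± 13.8 FPKM (SD, n = 4) to 89.6 ± 5.54 and 121 ± 8.76 FPKM (SD, n = 3 each; limma adjusted p = 9.2e-06 and 0.00132), but with equal totals it stood 0.08 (adjusted p = 0.453) and 0.26 (adjusted p = 0.0287) above normal liver on the log2 scale, so that the second fall became a called rise.

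Between the tumour groups 9 of these 40 genes were higher with Foxo1AAA and 1 was lower, beside 5 and 5 with equal totals. Of all genes, 7.93% were higher and 4.13% lower, and with equal totals 5.26% and 26.6%. Dbp was 2.56-fold higher (limma adjusted p = 0.00778) and Atf5 was 2.10-fold higher (limma adjusted p = 0.00576). Both differences were called with equal totals too, at 1.06 and 0.81 on the log2 scale (adjusted p = 0.00984 and 0.00795).

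Most factors of bile ducts and fetal liver rose. Of 13 tested among 19, 10 rose and 1 fell in Akt/Nras tumours (median 2.38), and 10 rose and 2 fell in Foxo1AAA tumours (median 2.12). As deposited, 31.1% and 26.8% of all genes rose. With equal totals 14 and 11 of 15 tested rose and 1 fell in each, beside 70.7% and 62.1% of all genes that rose. Sox4, a progenitor factor, rose from 0.359 ± 0.174 FPKM (SD, n = 4) to 39.3 ± 3.72 and 36.3 ± 2.74 FPKM (SD, n = 3 each; limma adjusted p = 9.72e-10 and 2.15e-09). Sox9, a factor of bile duct cells, rose from 0.656 ± 0.236 FPKM (SD, n = 4) to 39.2 ± 2.13 and 27.8 ± 7.36 FPKM (SD, n = 3 each; limma adjusted p = 8.28e-09 and 2.9e-08). Id3 fell in both tumour groups, and Id2 fell in Foxo1AAA tumours by 0.44 on the log2 scale, a change of 0.27 with equal totals. Both encode inhibitors of basic helix-loop-helix factors. Cholangiocyte markers, of which Sox9 is 1, moved with these factors: 10 and 9 of 10 tested rose, and their sum was 26.4 to 32.6 FPKM in normal livers, 4385 to 6021 in Akt/Nras and 2850 to 5595 FPKM in Foxo1AAA tumours, most of it Spp1. Between the tumour groups 7 of these markers were lower with Foxo1AAA, among them Krt19 (16.4 ± 11.05 against 1.77 ± 0.391 FPKM, SD, n = 3 each; limma adjusted p = 0.00554) and Cftr (7.32 ± 1.34 against 0.779 ± 0.418 FPKM, SD, n = 3 each; limma adjusted p = 3.06e-04). The part of bile duct cells in the changes of the 9 factors was not tested.

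Most hepatocyte genes listed with FOXA, C/EBP or HNF6 sites fell. Of 22 enzymes and transporters, 21 fell and 1 rose in Akt/Nras tumours, and 18 fell and 1 rose in Foxo1AAA tumours (medians -2.49 and -1.83). With equal totals 18 and 17 fell and 2 rose in each. Of all genes, 37.9% and 36.5% fell and 31.1% and 26.8% rose as deposited, and with equal totals 12.9% and 12.7% fell and 70.7% and 62.1% rose. Cyp8b1, the sterol 12-alpha-hydroxylase of bile acid synthesis, fell from 280.2 ± 80.0 FPKM (SD, n = 4) to 1.95 ± 0.878 FPKM in Akt/Nras tumours (SD, n = 3; limma adjusted p = 1.67e-07), and Cyp7a1, the rate-limiting enzyme of that pathway, from 75.7 ± 24.1 (SD, n = 4) to 1.07 ± 1.11 FPKM (n = 3; limma adjusted p = 5.51e-07). Slc10a1, the bile acid uptake transporter, fell 11.7-fold in Foxo1AAA tumours (limma adjusted p = 1.09e-07). Igfbp1, a binding protein for insulin-like growth factors and a known target of both FOXA and FOXO1, was the 1 gene that rose, 13.8-fold and 14.9-fold (limma adjusted p = 1.73e-04 and 3.66e-04), with Foxo1AAA libraries from 138 to 859 FPKM. Of 20 secreted products, 17 fell and 2 rose, and 16 fell and 3 rose (medians -1.22 and -0.81). With equal totals 10 fell and 5 rose, and 8 fell and 5 rose. Trf, the plasma iron carrier, rose 2.01-fold and 2.62-fold (limma adjusted p = 2.74e-05 and 3.94e-06), and Serpina1c, of the antitrypsin family whose near-identical copies can share reads, fell 51.1-fold and 15.4-fold (limma adjusted p = 3.02e-07 and 4.37e-06).

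Between the tumour groups 15 of the 22 enzymes and transporters and 12 of the 20 secreted products were higher with Foxo1AAA, beside 7.93% of all genes. Their medians were 0.88 and 0.66, beside -0.01 for all genes. With equal totals 13 and 9 were higher, beside 5.26% of all genes. Over all genes, a fit on the 6 tumour libraries alone called only 5 higher. Most of these calls therefore rely on the spread estimated with the normal livers in the fit. Cyp8b1 was 15.3-fold higher (29.9 ± 21.6 against 1.95 ± 0.878 FPKM, SD, n = 3 each; limma adjusted p = 0.00327) and Cyp7a1 was 10.5-fold higher (limma adjusted p = 0.00586). Among secreted products Itih1, an inhibitor heavy chain, was 2.41-fold higher (limma adjusted p = 0.0127). Cebpa and Creb3l3 were higher in the same tumours. Hepatocyte markers, many of them among the secreted products, moved with these genes: 6 of 8 fell in each tumour group, 5 of 8 were higher with Foxo1AAA, and their part in the differences was not tested.

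Regulators and partners of the factors changed in both directions with the deposited scaling and only upward with equal totals, against normal liver. Of 19, 9 rose and 3 fell in Akt/Nras tumours, and 8 rose and 2 fell in Foxo1AAA tumours, beside 18 and 17 that rose and none that fell with equal totals. Over all genes 31.1% and 26.8% rose, and 70.7% and 62.1% did with equal totals. Trib2, a pseudokinase that directs C/EBP-alpha to degradation, rose from 0.446 ± 0.145 FPKM (SD, n = 4) to 4.40 ± 0.414 and 3.73 ± 1.92 FPKM (SD, n = 3 each; limma adjusted p = 2.3e-05 and 9.49e-05). Its paralog Trib1, with the same role, fell 1.64-fold and 1.53-fold (limma adjusted p = 7.46e-05 and 2.62e-04), but with equal totals its changes were 0.24 and 0.10 (adjusted p = 0.0359 and 0.367). Tle1, a Groucho corepressor, fell 1.83-fold and 1.64-fold (limma adjusted p = 1.13e-04 and 5.38e-04), with changes of 0.10 and 0.01 with equal totals. Kdm1a, a histone demethylase, was the 1 gene called between the tumour groups with the deposited scaling (7 were called lower with equal totals), 1.37-fold lower with Foxo1AAA (limma adjusted p = 0.0239).

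For each factor genes of most like pattern were taken by Pearson's r of log2(FPKM + 1) over the 10 libraries, among tested genes with a mean of at least 5 FPKM. The libraries fall into 3 groups, so r reflects mostly group means and is given as a description. Cebpa was nearest to Slco1b2, a hepatocyte uptake transporter (r = 0.997), and Nat8f2 (r = 0.997), and Creb3l3 to Akap1 (r = 0.995) and Eif4ebp2 (r = 0.994). Slco1b2 had means of 321 FPKM in normal liver, 14.2 in Akt/Nras and 53.5 FPKM in Foxo1AAA tumours, the order of groups of Cebpa. Foxa3 was nearest to Txnip (r = 0.981) and Trmt10c (r = 0.980), Onecut1 to Wdr45b (r = 0.987) and Adck5 (r = 0.979), Cebpb to Errfi1 (r = 0.977) and Atp6v1g1 (r = 0.977), and Prox1 to Acot2 (r = 0.969) and Ptpn11 (r = 0.954). Neighbours of the remaining members had a lower r: Foxa2 was nearest to Mydgf (r = 0.949) and Malat1 (r = 0.921), Onecut2 to Lats1 (r = 0.933), and Foxa1 to Serp1 (r = 0.926) and Ssr1 (r = 0.884). Serp1 and Ssr1 both encode proteins of the endoplasmic reticulum translocation machinery.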

How the data were processed

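RNA from 4 normal livers, 3 Akt/Nras tumours and 3 Akt/Nras/Foxo1AAA tumours was sequenced after polyA capture or removal of ribosomal RNA, per the labels' protocols, which do not say which was used for these libraries. The authors deposited FPKM per gene. The submitters' processing notes name FastQC 0.11.7 and GRCm38. For aligner, counter and strand setting, the sources used here give no name. Low FPKM values step by whole reads: 100.0% of values came out whole within 0.02 reads, 13.6 to 21.3 M reads per library. The number of reads by which the authors divided was 0.629 to 0.668 of these in normal livers, 1.00 to 1.06 of them in Akt/Nras and 0.875 to 0.928 in Foxo1AAA tumours, which is why an equal-total scaling was run. Of 56748 genes, 29302 were at 0 in all libraries and 959 shared a symbol, for which the row of highest mean was taken.

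Genes with at least 1 FPKM in at least 3 libraries were tested on log2(FPKM + 1) with limma 3.58.1 (R 4.3.3, empirical Bayes with a trend), 1 mean per group over all 10 libraries, two-sided, with Benjamini-Hochberg adjustment over all 12439 genes and a threshold of 0.05. Folds in the text are ratios of mean FPKM, and log2 changes are on the log2(FPKM + 1) scale, which understates changes of low genes. Ratios within libraries were tested by exact permutation. The fit was tested on simulated data. Alternatives were another pseudocount, other filters, equal totals, median-of-ratios scaling, the compared groups alone, a replicate block, limma voom on recovered reads, and leaving out each library. The members and the 17 gene lists (251 symbols) were chosen with earlier results of these data known, and some lists share genes. From each list up to 2 called genes with the largest rise and 2 with the largest fall per comparison could be named, and for each member the 2 genes of highest r among those with a mean of at least 5 FPKM. A few genes that this rule names are not reported here.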

Additional observations from a re-analysis of the deposited data

Results flagged for a closer look

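The ratio of Cebpb to Cebpa set 1 normal liver apart. It was 0.813 in normal liver 3, far from the other 3 normal livers, which lay between 0.502 and 0.512. Of 13 quantities screened in the normal livers (9 levels and 4 ratios), 1 was set apart, and chance does so in about 1 in 20 groups. The same liver was the highest of the 4 for Cebpb, Foxa1, Foxa2, Foxa3 and Onecut1, which is 5 of the 9 factors.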

How the results depend on the processing

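Against normal liver, equal totals moved the counts most. Between the tumour groups both equal totals and the choice of libraries in the fit moved them. Median-of-ratios scaling left the members at 1 higher and 6 lower in Akt/Nras tumours, and 1 higher and 5 lower in Foxo1AAA tumours. Over all genes it gave 4133 higher and 4410 lower, and 3753 higher and 4039 lower. With equal totals the members higher and lower were 3 and 2 for Akt/Nras tumours against normal liver, 2 and 3 for Foxo1AAA tumours against normal liver, and 1 and 2 between the tumour groups. Over all genes 9001 were higher and 1643 lower, 7902 higher and 1611 lower, and, between the tumour groups, 3383 lower. The share of calls that were higher went from 45.1% to 84.6%, from 42.3% to 83.1% and from 65.7% to 16.5%. Log2 changes that turned were 0.51 (Foxa1), 0.24 (Foxa2) and 0.10 (Foxa3) in Akt/Nras tumours, 0.37 (Foxa1), 0.079 (Foxa2) and 0.50 (Onecut2) in Foxo1AAA tumours, and -0.14 (Foxa1), -0.16 (Foxa2), -0.12 (Foxa3) and -0.21 (Prox1) between the tumour groups. A filter at 5 FPKM, which tests fewer genes, left 1969 and 1783 genes higher against normal liver. Between the tumour groups, 986 genes were higher and 514 lower as reported. There a pseudocount of 0.1 gave 305 lower, and no filter gave 595 higher and 328 lower. The 6 tumour libraries alone gave 5 higher and 5 lower with 0 members. In that limma fit 3 members had an unadjusted p under 0.05, Cebpa and Creb3l3 higher and Onecut1 lower. Limma voom, run only on all 10 libraries, called 2 members. Leaving out 1 library gave 402 to 1247 genes higher, 148 to 706 lower and 0 to 1 members lower. The ranges of log2 changes that crossed 0 when 1 library was left out were -0.25 to 0.038 for Onecut2 (Foxo1AAA tumours against normal liver) and, between the tumour groups, -0.12 to 0.31 for Foxa1, -0.14 to 0.25 for Foxa2, -0.061 to 0.087 for Prox1 and -0.35 to 0.068 for Cebpb. For log2 ratios they were -0.20 to 0.34 for Cebpb to Cebpa (Foxo1AAA tumours against normal liver), -0.39 to 0.045, -0.28 to 0.083 and -0.14 to 0.29 for Foxa3 to Foxa2 (in the order of comparisons above), and -0.079 to 0.12 for Foxa1 to Foxa2 (between the tumour groups). The cause of these changes was not tested.

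Same-numbered libraries did not deviate together more than others (r from -0.17 to 0.11, beside -0.15 to 0.20). With so few libraries in a group this cannot exclude a pairing, and the labels state none. With the replicate block on libraries 1 to 3, 1 member, 330 genes higher and 136 lower were called between the tumour groups, where Cebpa had an adjusted p of 0.0558 and was not called. The block also brought Foxa1 past the threshold in Akt/Nras tumours (log2 change -0.46, adjusted p = 0.0448). Over all alternatives, counts of members and of all genes kept a similar size, or ratios kept their direction and call, in 302 cases. Counts moved in 32 cases and ratios changed direction in 14, and no ratio had passed as reported. Log2 changes of single members and counts of the lists were tallied apart. Of these, 2063 were alike, 215 counts moved, and 17 log2 changes reversed, 20 lost their call and 7 gained one.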
